A study of Rattus norvegicus with 21 samples.

Results

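The proteasome subunit genes were described in the liver of rats given 2-ethylhexyl diphenyl phosphate (EHDP, spelled EDHP in the sample titles), a phosphate ester added to plastics to soften them and slow their burning. The set held every gene whose symbol began with Psma, Psmb, Psmc, Psmd or Psme followed by a number, apart from Psmb8 and Psmb9. Each gene was read from a probe set carrying that symbol alone, the one with the highest mean over all arrays. This gave 39 of the 14218 genes measured. The rule used symbols and, for probe sets, mean signal, not the effect of dose. Earlier results of these data were known when the genes and lists were chosen. Male Harlan Sprague-Dawley rats received EHDP in corn oil by oral gavage on 4 consecutive days, and RNA came from pieces of the left lobe, collected on day 5. The vehicle group, given corn oil alone, had 6 arrays, and the dose groups of 61.2, 122.5, 244.6, 489.2 and 978.5 mg/kg had 3 arrays each. The age of the rats is not given in the sources used here. The treatment protocol speaks of 5 vehicle rats, so the 6 vehicle arrays may not be 6 separate animals, and p-values measure the spread between these arrays.

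The proteasome is the protease of the cytosol and nucleus that degrades proteins tagged with ubiquitin. A barrel-shaped core, in which outer alpha rings gate the entry to inner beta rings with the active sites, is capped by a regulatory particle whose ATPase ring unfolds the substrate and whose other subunits bind and remove ubiquitin. When proteasome activity falls short, the transcription factor NFE2L1 is processed to an active form that raises transcription of subunit genes together, and the related factor NFE2L2 (NRF2), which governs antioxidant genes, has also been linked to some of them. In the liver the proteasome clears damaged and short-lived proteins, and inflammatory signals exchange some of its catalytic subunits for immunoproteasome forms.

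Most subunit genes were higher at the highest dose, with differences among the called genes from 0.27 (Psme2) to 0.70 (Psmd5) on the log2 scale. At 978.5 mg/kg, 27 of the 39 passed the test as higher than vehicle, against 6.18% of all genes. None passed as lower, against 4.07% of all genes. The test was limma's moderated test on the log2 signal with Benjamini-Hochberg adjustment over the 14218 genes, and a gene was called where its adjusted p was under 0.05. The median log2 difference of the 39 genes was 0.31, a 1.24-fold rise, and the median of all genes was -0.02. The group mean lay above the vehicle mean for 37 of the 39. At an unadjusted p under 0.05 in limma, 31 were higher and 0 lower, against 12.4% and 12.3% of all genes. In 23 of the 39, all 3 arrays of this dose lay above all 6 vehicle arrays, which held for 6.74% of all genes. Shares over all genes are not matched for signal. The 39 had mean levels from 6.81 (Psmc3ip) to 12.35 (Psmb4), against a median of 7.52 over all genes. In a fit to the genes above that median, 821 genes were called higher at this dose, 27 of the 39 among them. Because that fit held far fewer genes than the main fit, which called 878, its share called higher was above 6.18%. Psmc3ip lay below the median and was not in that fit. Without the first array of this dose, or in a fit to the vehicle and 978.5 mg/kg arrays alone, 17 of the 39 were called. Over all genes, calls of higher also fell, from 878 to 542 without that array and to 554 in the fit to those groups alone. The liver is a mixture of cells, so a change in the share of a cell type and a change in RNA per cell cannot be told apart in any of these values.

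**Figure D1:**
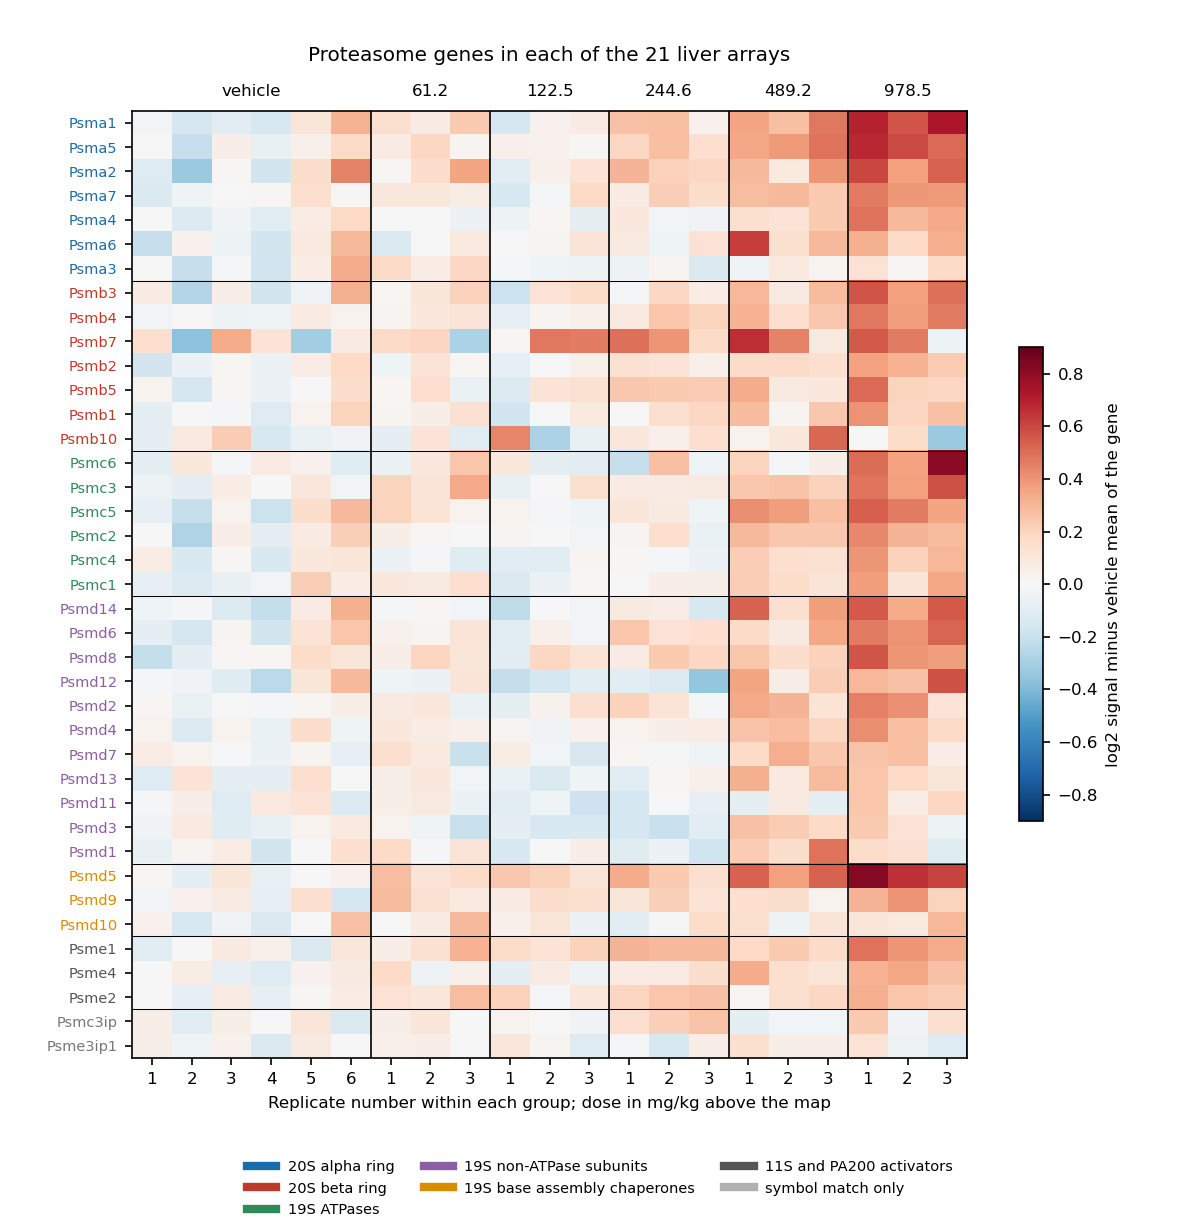
Log2 signal of each of the 39 genes (rows, grouped by role) on each of the 21 arrays (columns, grouped by dose in mg/kg), relative to the mean of the 6 vehicle arrays, as colour. The columns at 489.2 and 978.5 mg/kg are mostly in the colour of higher values, while those at 122.5 mg/kg are near 0.

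The alpha ring forms the outer wall of the core and holds the gate. Of its 7 genes, 5 were called higher at 978.5 mg/kg, with a median log2 difference of 0.41. Psma5 and Psma1 moved most. Psma5 read 10.86 to 11.24 in vehicle, with a median of 11.10, and 11.15, 11.26 and 11.10 at 61.2 mg/kg, 11.12, 11.11 and 11.08 at 122.5 mg/kg and 11.26, 11.35 and 11.22 at 244.6 mg/kg. Psma5 then read 11.42, 11.45 and 11.56 at 489.2 mg/kg and 11.75, 11.67 and 11.58 at 978.5 mg/kg. No array at 489.2 or 978.5 mg/kg overlapped with vehicle, and the difference at 978.5 mg/kg was 0.60 ± 0.07 (standard error from the fit, 1.51-fold, adjusted p = 3.25e-05). Psma1 read 10.78 to 11.25 in vehicle, with a median of 10.87, and 11.08, 11.01 and 11.17 at 61.2 mg/kg, 10.79, 10.97 and 11.01 at 122.5 mg/kg and 11.20, 11.21 and 10.98 at 244.6 mg/kg. Psma1 then read 11.29, 11.20 and 11.41 at 489.2 mg/kg and 11.63, 11.50 and 11.66 at 978.5 mg/kg. The 3 arrays at 978.5 mg/kg were above all others, and the difference was 0.66 ± 0.10 (1.58-fold, adjusted p = 0.000194). One vehicle array, at 11.25, reached into the range of the 489.2 mg/kg arrays. Psma7 read 11.32 to 11.60 in vehicle, with a median of 11.45, and 11.55, 11.55 and 11.51 at 61.2 mg/kg, 11.31, 11.43 and 11.63 at 122.5 mg/kg and 11.52, 11.67 and 11.60 at 244.6 mg/kg. Psma7 then read 11.73, 11.74 and 11.68 at 489.2 mg/kg and 11.92, 11.84 and 11.83 at 978.5 mg/kg. Its 2 upper dose groups did not overlap with vehicle, and the difference at 978.5 mg/kg was 0.41 ± 0.07 (1.33-fold, adjusted p = 0.000945). Psma4 read 11.06 to 11.37 in vehicle, with a median of 11.18, and 11.18, 11.19 and 11.13 at 61.2 mg/kg, 11.14, 11.21 and 11.10 at 122.5 mg/kg and 11.28, 11.16 and 11.16 at 244.6 mg/kg. Psma4 then read 11.33, 11.31 and 11.43 at 489.2 mg/kg and 11.67, 11.48 and 11.53 at 978.5 mg/kg. For this gene the 978.5 mg/kg arrays alone stood clear of vehicle, by 0.37 ± 0.07 (1.30-fold, adjusted p = 0.00184). Psma2 was called with a difference of 0.50 (adjusted p = 0.0159), with 1 of its 3 arrays inside the vehicle range, and the call was lost without the first (adjusted p = 0.0795) or the third (adjusted p = 0.0738) of them. The remaining alpha genes were not called. Psma6 differed by 0.27 (95% interval 0.06 to 0.49) and Psma3 by 0.10 (95% interval -0.08 to 0.29). A further probe set for Psma3 also carries the symbol of the near-identical copy Psma3l and was left out.

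The beta ring carries the proteolytic sites. Of its 7 genes, 5 were called higher at 978.5 mg/kg, with a median log2 difference of 0.30. Psmb4, which is a structural subunit of the core, had the smallest spread between arrays of all 39 genes (residual SD 0.061). Psmb4 read 12.17 to 12.29 in vehicle, with a median of 12.20, and 12.24, 12.31 and 12.33 at 61.2 mg/kg, 12.14, 12.24 and 12.26 at 122.5 mg/kg and 12.30, 12.46 and 12.41 at 244.6 mg/kg. Psmb4 then read 12.53, 12.37 and 12.46 at 489.2 mg/kg and 12.69, 12.59 and 12.69 at 978.5 mg/kg. Its vehicle arrays lay close together and below every array at the 3 highest doses, and the difference at 978.5 mg/kg was 0.44 ± 0.06 (1.36-fold, adjusted p = 9.2e-05). The catalytic subunit Psmb5, with chymotrypsin-like activity, differed by 0.30 (adjusted p = 0.0365), and its call was lost in 11 of 18 alternative fits, among them the one without the first 978.5 mg/kg array (0.19). The catalytic subunit Psmb7, with trypsin-like activity, was the most variable gene of the set (residual SD 0.272) and was not called at 0.32 (95% interval -0.04 to 0.69). The structural genes Psmb3, Psmb2 and Psmb1 were called at 0.48, 0.30 and 0.29. Psmb2 lost its call without the first 978.5 mg/kg array (0.27, adjusted p = 0.0531). Psmb1 lost it without the first (0.23, adjusted p = 0.158) or the third (0.30, adjusted p = 0.0879), or without vehicle array 1, 3 or 4. Psmb6, the subunit with caspase-like activity, shares its probe set with the symbol Psmb6l1 and is not among the 39 genes.

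Psmb10, the immunoproteasome counterpart of Psmb7, differed by -0.06 (95% interval -0.35 to 0.23). Its arrays at 978.5 mg/kg read 9.38, 9.54 and 9.05, the last of them below the vehicle range of 9.23 to 9.61 and the others within it. The immunoproteasome subunits Psmb8 and Psmb9, outside the set by rule, were also not called, at -0.23 ± 0.23 (adjusted p = 0.576) and 0.38 ± 0.21 (adjusted p = 0.281). Of 19 measured genes of interferon response and antigen presentation, Psmb8, Psmb9 and Psmb10 among them, 2 were called higher and none lower. Over all genes 6.18% were called higher and 4.07% lower, so these calls say little about the list. The called genes were Ifit2 (0.85) and Tapbp (0.31), and the list's median was 0.21. Each of the calls was lost without 1 or more single arrays, that of Ifit2 without the third 978.5 mg/kg array (0.76, adjusted p = 0.0646) and that of Tapbp without the second (0.24, adjusted p = 0.147), the first (0.27), or vehicle array 1 (0.31) or 6 (0.28).

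The ATPases form the ring at the base of the regulatory particle that unfolds substrates and opens the gate. All 6 measured genes were called higher at 978.5 mg/kg, with a median log2 difference of 0.40 and values from 0.28 (Psmc1) to 0.56 (Psmc6). Psmc3 read 10.51 to 10.69 in vehicle, with a median of 10.58, and 10.79, 10.71 and 10.93 at 61.2 mg/kg, 10.53, 10.59 and 10.74 at 122.5 mg/kg and 10.67, 10.67 and 10.68 at 244.6 mg/kg. Psmc3 then read 10.84, 10.85 and 10.80 at 489.2 mg/kg and 11.08, 10.97 and 11.16 at 978.5 mg/kg. The 489.2 and 978.5 mg/kg arrays were all above vehicle, but so were those at 61.2 mg/kg, while those at 244.6 mg/kg were within the vehicle range. The difference at 978.5 mg/kg was 0.48 ± 0.07 (1.39-fold, adjusted p = 0.000153). Psmc6 read 10.26 to 10.46 in vehicle, with a median of 10.38, and 10.31, 10.47 and 10.61 at 61.2 mg/kg, 10.46, 10.29 and 10.27 at 122.5 mg/kg and 10.16, 10.63 and 10.33 at 244.6 mg/kg. Psmc6 then read 10.56, 10.35 and 10.41 at 489.2 mg/kg and 10.87, 10.73 and 11.18 at 978.5 mg/kg. Here all 978.5 mg/kg arrays lay above all other arrays, with a difference of 0.56 ± 0.10 (1.47-fold, adjusted p = 0.00181), while the difference at 489.2 mg/kg was 0.08. Both further probe sets of Psmc6 gave differences of the same size, 0.53 and 0.64. Psmc5 read 9.86 to 10.36 in vehicle, with a median of 10.05, and 10.27, 10.19 and 10.10 at 61.2 mg/kg, 10.10, 10.06 and 10.03 at 122.5 mg/kg and 10.18, 10.15 and 10.03 at 244.6 mg/kg. Psmc5 then read 10.49, 10.44 and 10.34 at 489.2 mg/kg and 10.60, 10.53 and 10.43 at 978.5 mg/kg. This gene was called at both upper doses, and 1 array at 489.2 mg/kg fell inside the vehicle range. Its difference at 978.5 mg/kg was 0.45 ± 0.09 (1.37-fold, adjusted p = 0.00367). Psmc2 and Psmc4 were called at 0.34 and 0.30. The calls of Psmc1, Psmc2 and Psmc4 were lost without the first 978.5 mg/kg array, and that of Psmc1 also without the third.

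The non-ATPase subunits of the regulatory particle receive ubiquitin chains, hold the deubiquitinating enzyme and form the lid. Of 11 measured, 6 were called higher at 978.5 mg/kg, with a median log2 difference of 0.29. Psmd14, which cuts ubiquitin from the substrate, and the lid subunits Psmd6 and Psmd8 led the group. Psmd6 read 10.06 to 10.48 in vehicle, with a median of 10.20, and 10.27, 10.25 and 10.34 at 61.2 mg/kg, 10.13, 10.27 and 10.21 at 122.5 mg/kg and 10.48, 10.36 and 10.38 at 244.6 mg/kg. Psmd6 then read 10.40, 10.31 and 10.57 at 489.2 mg/kg and 10.70, 10.64 and 10.76 at 978.5 mg/kg. Psmd8 read 10.90 to 11.28 in vehicle, with a median of 11.13, and 11.17, 11.31 and 11.22 at 61.2 mg/kg, 11.01, 11.30 and 11.23 at 122.5 mg/kg and 11.18, 11.35 and 11.30 at 244.6 mg/kg. Psmd8 then read 11.37, 11.27 and 11.32 at 489.2 mg/kg and 11.68, 11.51 and 11.49 at 978.5 mg/kg. In both, all arrays at 978.5 mg/kg exceeded the highest vehicle array. The differences were 0.47 ± 0.09 for Psmd6 (1.38-fold, adjusted p = 0.00152) and 0.45 ± 0.08 for Psmd8 (1.36-fold, adjusted p = 0.00174). Psmd14 read 10.06 to 10.60 in vehicle, with a median of 10.25, and 10.26, 10.29 and 10.25 at 61.2 mg/kg, 10.05, 10.27 and 10.25 at 122.5 mg/kg and 10.36, 10.35 and 10.13 at 244.6 mg/kg. Psmd14 then read 10.81, 10.43 and 10.65 at 489.2 mg/kg and 10.83, 10.61 and 10.83 at 978.5 mg/kg. The lowest 978.5 mg/kg array was close to the highest vehicle array, and the difference was 0.48 ± 0.10 (1.39-fold, adjusted p = 0.00557). Further probe sets for Psmd14 gave 0.70 (adjusted p = 0.0183 over all single-symbol probe sets) and 0.39 (adjusted p = 0.171). Psmd2 (0.33), which docks shuttle factors, the ubiquitin receptor Psmd4 (0.29) and the lid subunit Psmd12 (0.38) were also called. Of these, Psmd12 lost its call without the third 978.5 mg/kg array (0.28, adjusted p = 0.183), and Psmd2 and Psmd4 without the first, Psmd2 also without the second. Psmd7, Psmd13, Psmd11, Psmd3 and Psmd1 were not called, with differences of 0.20, 0.18, 0.17, 0.11 and 0.06. For Psmd7 the dimmer probe set gave 0.42 (adjusted p = 0.00262 over all single-symbol probe sets), so its call depends on the probe set used.

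Psmd5, Psmd9 and Psmd10 encode chaperones that assemble the base of the regulatory particle and leave the finished particle. Psmd5 had the largest difference of the 39 genes. Psmd5 read 9.70 to 9.90 in vehicle, with a median of 9.80, and 10.07, 9.91 and 9.96 at 61.2 mg/kg, 10.03, 10.00 and 9.91 at 122.5 mg/kg and 10.13, 10.03 and 9.94 at 244.6 mg/kg. Psmd5 then read 10.33, 10.16 and 10.33 at 489.2 mg/kg and 10.62, 10.45 and 10.40 at 978.5 mg/kg. Every treated array, at every dose, lay above every vehicle array. The difference from vehicle was 0.19 at both 61.2 and 122.5 mg/kg and 0.24 at 244.6 mg/kg, none of them called, then 0.48 ± 0.07 at 489.2 mg/kg (adjusted p = 0.000683) and 0.70 ± 0.07 at 978.5 mg/kg (1.62-fold, adjusted p = 3.35e-06). Psmd9 was called at 0.30. That call was lost without the second 978.5 mg/kg array (0.25, adjusted p = 0.0633), and a dimmer probe set gave 0.20 (adjusted p = 0.229). Psmd10, also known as the oncoprotein gankyrin, was not called (0.17, 95% interval -0.03 to 0.36).

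The activators Psme1, Psme2 and Psme4 cap the core in place of the regulatory particle, Psme1 with Psme2 in the interferon-inducible ring and Psme4 as the single-chain activator PA200. All 3 were called higher at 978.5 mg/kg. Psme1 read 11.98 to 12.21 in vehicle, with a median of 12.14, and 12.18, 12.25 and 12.43 at 61.2 mg/kg, 12.28, 12.24 and 12.32 at 122.5 mg/kg and 12.42, 12.41 and 12.41 at 244.6 mg/kg. Psme1 then read 12.30, 12.35 and 12.29 at 489.2 mg/kg and 12.60, 12.51 and 12.45 at 978.5 mg/kg. Its arrays at 122.5 mg/kg and above were all higher than the vehicle arrays. It was the only gene of the set called at 244.6 mg/kg (0.30 ± 0.07, adjusted p = 0.0159), was not called at 489.2 mg/kg (0.20, adjusted p = 0.142), and differed by 0.40 ± 0.07 at 978.5 mg/kg (1.32-fold, adjusted p = 0.00077). Psme4 read 10.54 to 10.74 in vehicle, with a median of 10.68, and 10.84, 10.62 and 10.71 at 61.2 mg/kg, 10.57, 10.73 and 10.61 at 122.5 mg/kg and 10.73, 10.73 and 10.82 at 244.6 mg/kg. Psme4 then read 10.99, 10.81 and 10.77 at 489.2 mg/kg and 10.97, 11.01 and 10.92 at 978.5 mg/kg. The arrays of both upper doses overlapped with each other and not with vehicle, and the difference at 978.5 mg/kg was 0.31 ± 0.07 (1.24-fold, adjusted p = 0.00706). Psme2 was called at 0.27, a call lost without the first 978.5 mg/kg array (0.24, adjusted p = 0.072). For Psme4, further probe sets gave 0.41 (adjusted p = 0.0397 over all single-symbol probe sets) and 0.13 (adjusted p = 0.478), so the size of its difference depends on the probe set. The third member of the Psme1 family, Psme3, shares all its probe sets with other genes and is not among the 39.

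Psmc3ip, a recombination factor that binds Psmc3, and Psme3ip1, which binds Psme3, match the rule by symbol alone and are not proteasome subunits. Psmc3ip read 6.63 to 6.87 in vehicle, with a median of 6.79, and 6.82, 6.87 and 6.75 at 61.2 mg/kg, 6.79, 6.77 and 6.73 at 122.5 mg/kg and 6.91, 6.98 and 7.02 at 244.6 mg/kg. Psmc3ip then read 6.68, 6.74 and 6.74 at 489.2 mg/kg and 6.99, 6.73 and 6.90 at 978.5 mg/kg. Its 978.5 mg/kg arrays overlapped with vehicle, and neither gene was called (0.11 and -0.01).

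**Figure D2:**
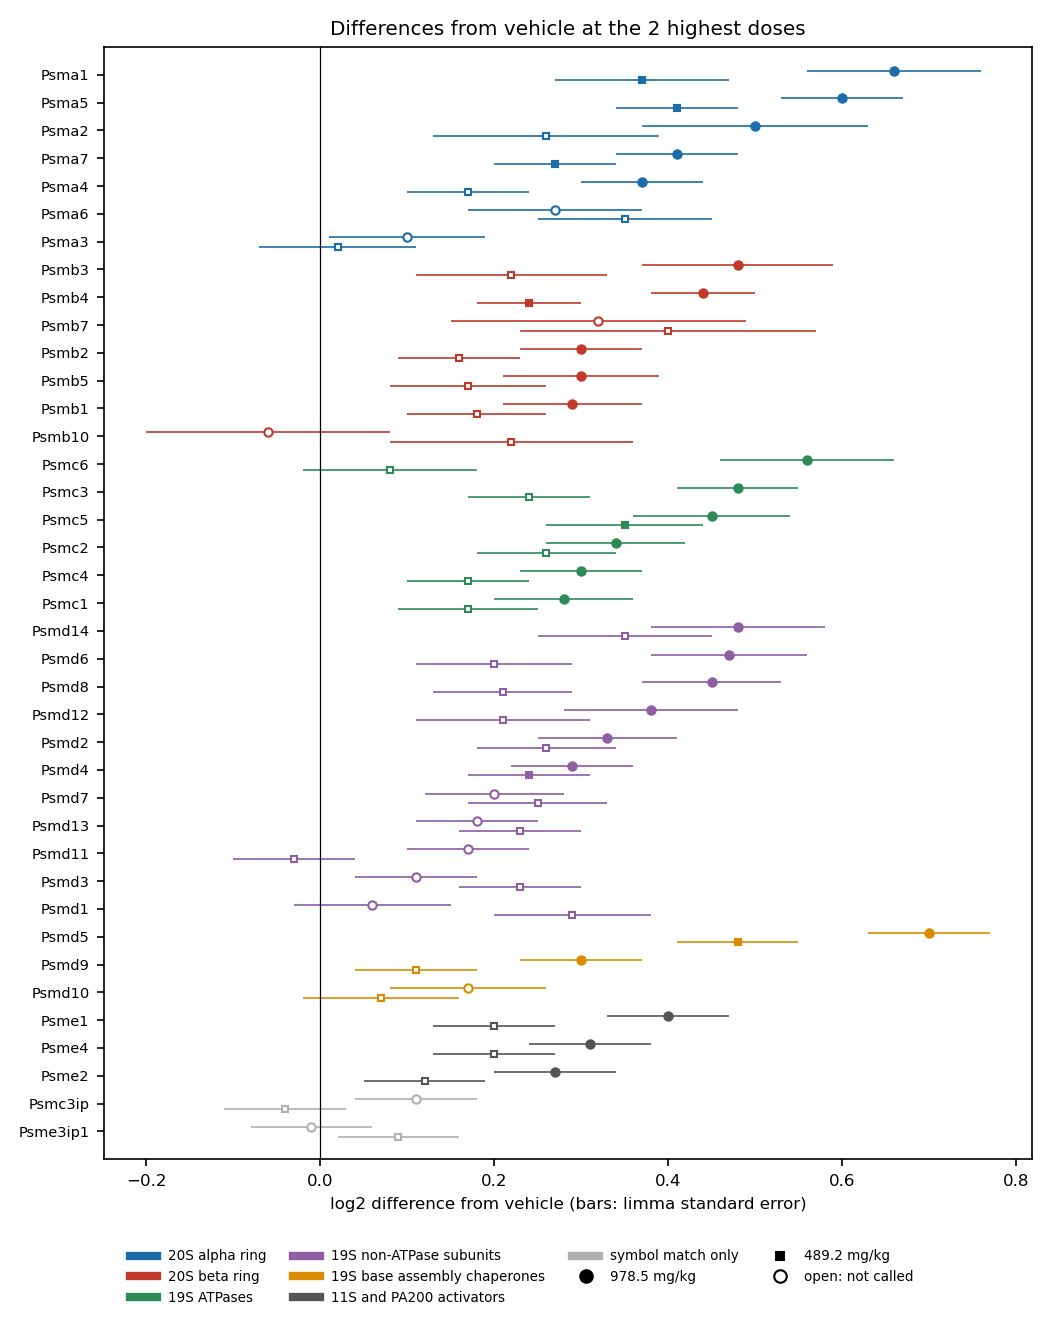
Log2 difference from vehicle of each gene at 489.2 mg/kg (squares) and 978.5 mg/kg (circles), with the standard error of the fit as bars and the role of the gene as colour, and filled symbols for adjusted p under 0.05. At 978.5 mg/kg the values run from -0.06 (Psmb10) to 0.70 (Psmd5), and 27 of 39 circles are filled.

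The rise was seen mainly at the upper doses. At 61.2 mg/kg none of the 39 genes was called in either direction, with 0.0141% of all genes called higher and 0% lower. Their median difference was 0.07, with 5 higher and 0 lower at an unadjusted p under 0.05 in limma, against 3.12% and 2.36% of all genes. At 122.5 mg/kg again none was called, with 0.113% of all genes called higher and 0% lower. There the median was 0.00, with 2 higher and 0 lower at an unadjusted p under 0.05 in limma, against 3.19% and 2.87% of all genes. At 244.6 mg/kg 1 gene was called higher against 2.52% of all genes and 0 lower against 0.429%, and the median was 0.08. At an unadjusted p under 0.05 in limma, 8 were higher and 1 lower, against 8.32% and 5.63% of all genes. The call, that of Psme1, was lost without any 1 of the 3 arrays of that dose.

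At 489.2 mg/kg 7 genes were called higher against 1.51% of all genes and 0 lower against 1.39%, and the median was 0.22. In order of p these were Psmd5 (0.48), Psma5 (0.41), Psmb4 (0.24), Psma7 (0.27), Psmc5 (0.35), Psma1 (0.37) and Psmd4 (0.24). At an unadjusted p under 0.05 in limma, 26 were higher and 0 lower, against 7.37% and 7.11% of all genes, and 37 of 39 group means lay above vehicle. Psmd5 and Psma5 alone were called without vehicle array 1, 2, 3 or 4 or 489.2 mg/kg array 1 or 3, and 1 gene was called in a fit to the 2 groups alone.

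The step from 489.2 to 978.5 mg/kg was not resolved gene by gene. With 0.106% of all genes called higher and 0% lower, 0 of the 39 were called higher and 0 lower in limma. At an unadjusted p under 0.05, 12 were higher and 1 lower, against 7.17% and 6.47% of all genes. The median difference was 0.13, and 31 of 39 means were higher at 978.5 mg/kg. The smallest adjusted p was that of Psmc6 (0.48, 95% interval 0.23 to 0.73, adjusted p = 0.122), which had risen little at 489.2 mg/kg.

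The slope over dose rank, from 0 for vehicle to 5 for 978.5 mg/kg, was above 0 for all 39 genes. It was called for 28 as higher against 6.06% of all genes and for 0 as lower against 5.12%. Psmd5 rose by 0.12 ± 0.01 per dose step (adjusted p = 2.15e-06) and Psma5 by 0.11 ± 0.01 (adjusted p = 1.88e-05). Psma6 and Psmd7 were called by the slope and not at 978.5 mg/kg, and Psmd12 the other way round. The slope of Psmd7 (adjusted p = 0.0494) lost its call without any 1 of 15 of the 21 arrays, and Psma6 was called at 978.5 mg/kg without vehicle array 6 (0.33, adjusted p = 0.0311) or with array weights (0.31, adjusted p = 0.0446). With the vehicle arrays left out, 12 slopes were called, and without the first 978.5 mg/kg array 18 were. The comparisons of each dose with vehicle, and the slope over all groups, share the vehicle arrays and are not independent of each other.

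**Figure D3:**
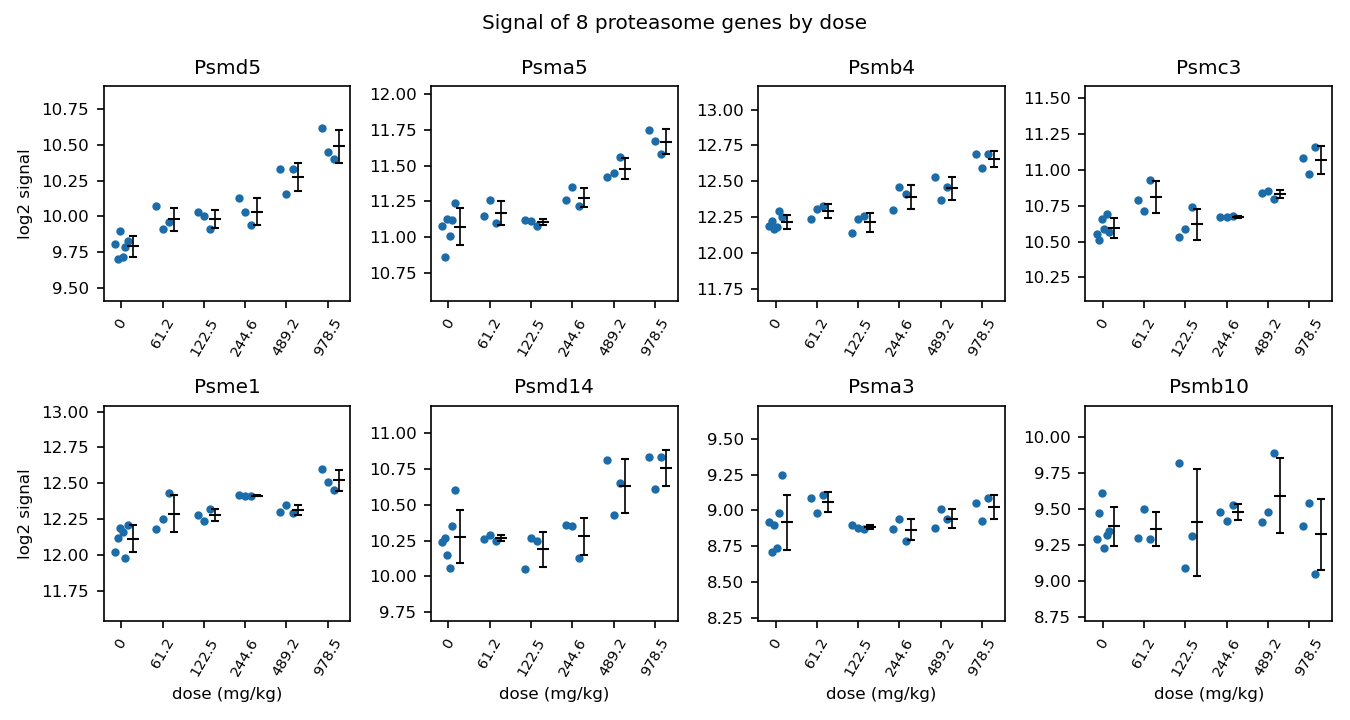
Log2 signal on every array (points) of 8 genes by dose in mg/kg, with the group mean and SD beside the points as a dash and error bar; each panel spans the same range of log2 units. In Psmd5, Psma5, Psmb4, Psmc3, Psme1 and Psmd14 all 978.5 mg/kg points lie above all vehicle points, and in Psma3 and Psmb10, which were not called, they overlap.

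The genes varied little between arrays of a group. The median residual SD of the 39 genes was 0.099 on the log2 scale, against 0.138 over all genes. Their mean per array, relative to the vehicle mean, ran from -0.08 to 0.12 in vehicle and was 0.07, 0.08 and 0.07 at 61.2 mg/kg. At 122.5 mg/kg it was -0.02, 0.02 and 0.03, and at 244.6 mg/kg 0.08, 0.11 and 0.07. The 489.2 mg/kg arrays had means of 0.25, 0.17 and 0.22, and the 978.5 mg/kg arrays 0.40, 0.29 and 0.29. The arrays of the 2 upper doses did not overlap with vehicle, while those of the 3 lower doses lay within its range. Single arrays carried much of the spread inside a group. Vehicle array 6 was the highest of its group for 21 of the 39 genes, the first array at 489.2 mg/kg for 21 and the first at 978.5 mg/kg for 27. The median signal per array differed by little, from 6.33 to 6.41, and each array's mean correlation with the others was 0.988 to 0.994. Of the 39 genes 9 have several probe sets, and beside the values given above for Psmc6, Psmd7, Psmd9, Psmd14 and Psme4, the unused ones gave smaller differences at 978.5 mg/kg for Psmb5 (0.10 and 0.07), Psmc4 (0.09) and Psme1 (0.08), and 0.16 and 0.15 for Psmd11 (0.17). With all probe sets averaged, Psme1 at 244.6 mg/kg differed by 0.17 and was not called. No filter on low signal was used, so all 39 genes were tested.

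**Figure D4:**
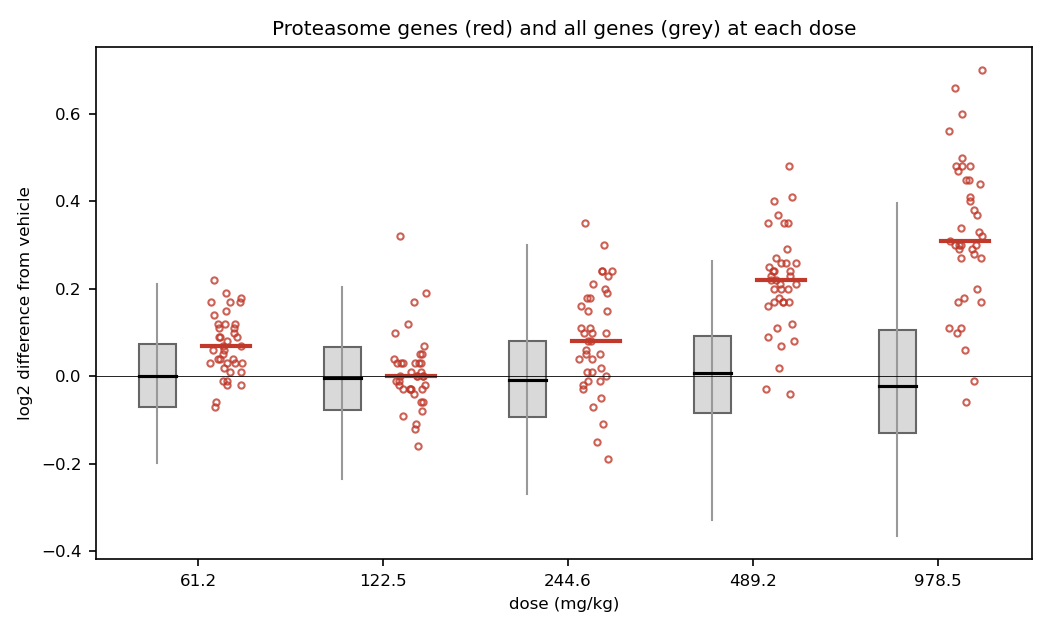
Log2 difference from vehicle of the 39 genes (red points, with their median as a red line) and of all 14218 genes (grey box for the quartiles with the median as a black line, thin line from the 5th to the 95th percentile) at each dose in mg/kg. The median of the 39 genes is 0.07, 0.00, 0.08, 0.22 and 0.31 from the lowest to the highest dose, and that of all genes stays between -0.02 and 0.01.

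Genes that build, regulate or work beside the proteasome were examined as a list of 26, of which 22 were measured. At 978.5 mg/kg 9 were called higher against 6.18% of all genes and 0 lower against 4.07%, with a median of 0.22. Ubqln2 and Ubqln1, which carry ubiquitinated proteins to the proteasome, differed by 0.68 ± 0.07 (adjusted p = 4.52e-06) and 0.35 (adjusted p = 0.00524). Usp14, the deubiquitinase bound to the regulatory particle, differed by 0.62 ± 0.10 (adjusted p = 6e-04). The thioredoxin-like Txnl1 (0.37), the inhibitor Psmf1 (0.37) and the adaptor Ecpas (0.32) were also called. Among the chaperones of core assembly, Psmg1 (0.25, adjusted p = 0.0293) and Psmg2 (0.42, adjusted p = 0.0368) were called. Pomp (0.25, adjusted p = 0.0615), Psmg3 (0.14, adjusted p = 0.411) and Psmg4 (0.13, adjusted p = 0.336) were not. The calls of Psmg1 and Psmg2 were lost without the first or the third 978.5 mg/kg array, among others, that of Psmf1 without the first or the second, and that of Ecpas without the third. Of these 22 genes 5 were called without the first array of that dose, and 5 without the third. Over all genes, calls of higher also fell, from 878 to 542 without the first and to 461 without the third. With all probe sets of a gene averaged, Ubqln2 (0.16) and Ecpas (0.06) were not called.

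Of 13 measured genes around NFE2L1 and its processing, 3 were called higher and 0 lower, against 6.18% and 4.07% of all genes. Their median was 0.05. The transcript of Nfe2l1 itself read 8.24 to 9.07 in vehicle, with a median of 8.91, and 9.32, 9.64 and 9.28 at 978.5 mg/kg. Vehicle array 6 alone read 8.24 and the next lowest 8.84, so that array 6 widened the difference from vehicle. All treated arrays, at all doses, lay above the highest vehicle array, and the difference at 978.5 mg/kg was 0.58 ± 0.14 (adjusted p = 0.00886). The call was lost without the second array of that dose (0.47, adjusted p = 0.0605). Nploc4 (0.40) and Ufd1 (0.34), partners of the ATPase that extracts proteins from the endoplasmic reticulum, were the others, and Ufd1 lost its call without the first or the third array of that dose. Averaged over its probe sets, Nploc4 differed by 0.19 and was not called (adjusted p = 0.0645). Nfe2l2 differed by -0.19 ± 0.16 (adjusted p = 0.505). The transcript level of either factor does not measure its activity. In a list of 17 measured NRF2 target genes, 14 were called higher and 0 lower at 978.5 mg/kg, with a median of 1.01. Pir (1.48), Gsta3 (2.91), Abcc3 (3.5), Gsr (1.48), Ephx1 (1.01) and Gclm (1.18) had the smallest p. Of these targets 1, 4, 14 and 12 were called higher at the doses from 61.2 to 489.2 mg/kg in turn. Over all genes the shares were 0.0141%, 0.113%, 2.52% and 1.51%. The part of NRF2 in the proteasome differences was not tested. Of 9 measured genes for ubiquitin and its activation 1 was called higher, Ube2k (0.33), against 6.18% of all genes, and the median was 0.03. Averaged over its probe sets, Ube2k differed by 0.12 and was not called.

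**Figure D5:**
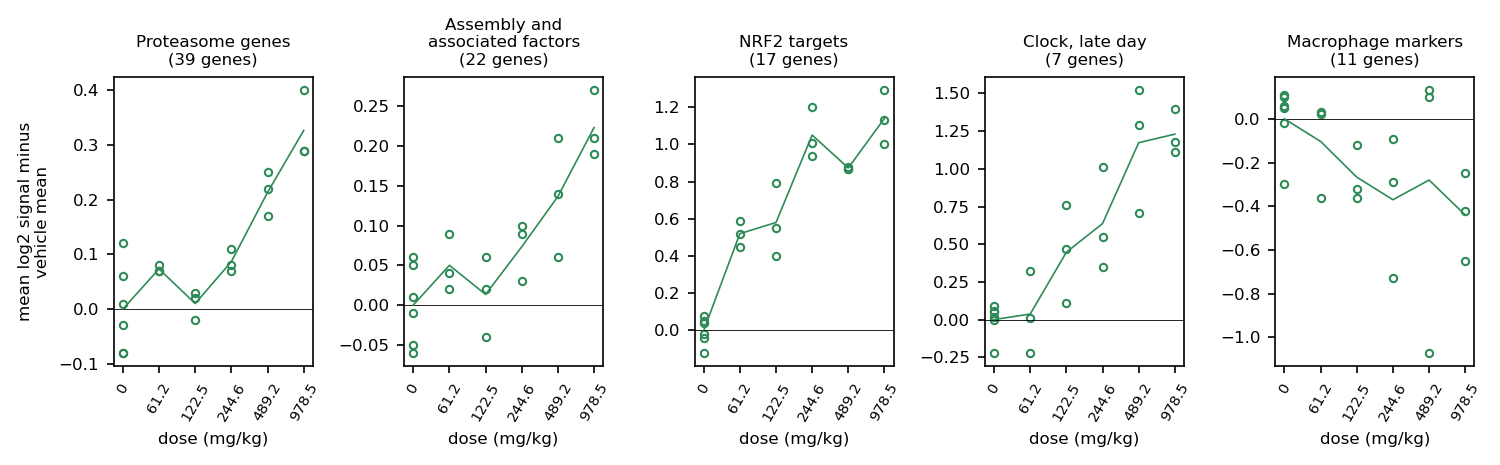
Mean log2 signal of each gene list per array (points), relative to the mean of the vehicle arrays, by dose in mg/kg, with a line through the group means. The vertical scale differs between panels: the 39 proteasome genes reach 0.40 at 978.5 mg/kg, while the NRF2 targets reach 1.29 and the late-day clock genes 1.40.

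Promoter sequence was examined because NFE2L1 and NRF2 bind the antioxidant response element. RefSeq (rat build GRCr8) gave a promoter for 35 of the 39 genes, and the 250 bases before each transcription start were searched on both strands. The core of the element, searched as TGACNNNGC, was present in 6 of 35 (17.1%) and in 10.1% of all 33469 promoters of the table. Genes called higher at 978.5 mg/kg made up 23 of the 35, and 4 of the 6 with the core. The windows are shown 5′ to 3′ on the strand of the gene, with the core in capitals (GCNNNGTCA where it lies on the opposite strand). The first 5 belong to called genes and the last 2 to genes that were not called.
Psmb2, chr5:144254974-144255014 (+): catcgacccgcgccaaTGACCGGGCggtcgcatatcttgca
Psmb5, chr15:32047415-32047455 (-): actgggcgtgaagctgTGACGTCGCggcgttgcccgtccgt
Psmd9, chr12:39018317-39018357 (-): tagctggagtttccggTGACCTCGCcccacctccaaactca
Psmd9, chr12:39018364-39018404 (-): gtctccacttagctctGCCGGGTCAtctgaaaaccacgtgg
Psme4, chr14:108706572-108706612 (+): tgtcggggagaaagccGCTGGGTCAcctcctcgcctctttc
Psma3, chr6:95219721-95219748 (+): aagcgttctgtggcctGCCGGGTCAgca
Psmd1, chr9:94157790-94157830 (+): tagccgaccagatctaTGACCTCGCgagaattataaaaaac
Psmd9 held the core at 2 places. In Psmb2 the first base of the core is also the last of a CCAAT box, and no other core overlapped with another motif searched. The genes with the largest differences, Psmd5, Psma1 and Psma5, had no core in this window. The leading Psmd6, Psmd14 and Psma7 had no promoter in the table, nor did Psmd12.

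Binding sites of the ETS family, searched as CCGGAAG, were present in 11 of the 35 promoters (31.4%) and in 7.27% of all promoters, and 5 of the 11 genes were called higher at 978.5 mg/kg. Windows from the called genes Psmb4 and Psmc6 are shown, with the site in capitals (CTTCCGG on the opposite strand).
Psmb4, chr2:185134562-185134599 (-): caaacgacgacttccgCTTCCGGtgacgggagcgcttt
Psmc6, chr15:21022229-21022267 (+): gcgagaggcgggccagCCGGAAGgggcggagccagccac
The CCAAT box was in 18 of 35 (51.4%, against 34.0% of all promoters), TATAAA in 4 (11.4%, against 12.9%) and the cAMP response element TGACGTCA in 1, that of Psmb2 (2.86%, against 1.59%). Psmc3ip and Psme3ip1, which are not subunits, are counted among the genes with an ETS site and those with a CCAAT box. The 33469 promoters compared were not limited to the genes measured on the arrays. These are matches of letters in a window, with no measure of binding.

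Other gene groups moved at the same doses. Clock genes that peak late in the day had a median difference of 1.44 at 978.5 mg/kg. Of 7 measured, 5 were called higher against 6.18% of all genes, led by Per3 (1.54) and Dbp (2.87). Of 5 genes that peak late in the night 4 were called lower against 4.07% of all genes, led by Npas2 (-1.75). The median of the late-night genes was -1.11. The mean of the late-day genes per array ran from -0.22 to 0.09 in vehicle and was 0.71, 1.52 and 1.29 at 489.2 mg/kg and 1.18, 1.40 and 1.11 at 978.5 mg/kg. At 489.2 mg/kg the first array had the lowest late-day mean and the highest mean of the proteasome genes. At 978.5 mg/kg the second array was highest for the late-day genes and the first for the proteasome genes. The order of 3 arrays within a group cannot decide whether the lists are related. The part of clock phase in the proteasome differences was not tested.

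The labelled tissue was liver, and the hepatocyte markers had list means from 14 to 14.20 over all arrays. For the counts below, 6.18% of all genes were called higher and 4.07% lower at 978.5 mg/kg. At 978.5 mg/kg 0 of 13 hepatocyte markers were called in either direction by limma at the adjusted threshold, with 0 higher and 3 lower at an unadjusted p under 0.05, and their median was -0.06. Macrophage markers had a median of -0.59, with 1 of 11 called higher (Cd14, 0.80) and 1 lower (Cd163, -0.77), and their list means were 9.63 to 10.03 in vehicle and 9.27 to 9.67 at 978.5 mg/kg. In a fit to these groups alone 7 of the 11 were called lower, and without the first 978.5 mg/kg array 0 were. Over all genes, calls of lower fell from 579 to 407 in that fit and to 362 without that array. Stellate cell and fibroblast markers had a median of -0.31 with 2 of 12 called lower (Pdgfrb and Reln), and endothelial markers a median of -0.22 with 1 of 10 called lower (Egfl7). The calls of Reln and Egfl7 were lost without the first 978.5 mg/kg array, that of Reln also without the third or without vehicle array 1, 2, 4 or 5. Their list means were 7.42 to 7.88 and 8.37 to 9.01 in vehicle and 7.03 to 7.55 and 8.28 to 8.70 at 978.5 mg/kg. Lymphocyte markers had list means of 5.91 to 6.21 in vehicle and 5.68 to 5.90 at 978.5 mg/kg, and a median difference of -0.25, with 0 of 13 called and 0 higher and 7 lower at an unadjusted p under 0.05 in limma. Relative to vehicle, the mean of the macrophage markers was -1.07, 0.10 and 0.13 on the 489.2 mg/kg arrays and -0.65, -0.25 and -0.42 on the 978.5 mg/kg arrays. At both doses the first array was thus lowest for the macrophage markers and highest for the mean of the 39 proteasome genes. At 122.5 mg/kg the third array held both places. In vehicle and at 61.2 and 244.6 mg/kg, the array lowest for the macrophage markers was not the one with the highest proteasome mean. The part of cell composition in the proteasome differences was not tested.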

How the data were processed

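Total RNA from liver was hybridised to 21 Affymetrix rat arrays. The deposited values are log2 signals made with RMA, per the submitters' processing notes; its version and settings are not given in the sources used here. Of 31099 probe sets, 20832 had 1 symbol in the platform annotation, 436 several and 9831 none. All 39 genes matched RefSeq by gene identifier. limma 3.58.1 in R 4.3.3 fitted 1 mean per group on all 21 arrays (15 residual degrees of freedom), with eBayes and Benjamini-Hochberg adjustment over 14218 genes at 0.05, and a slope on dose rank 0 to 5. No filter was used. The code was tested on simulated data. Array number limits precision. The genes and lists were chosen with earlier results of these data known. Values per array are given for called genes, at most 14 by p at 978.5 mg/kg, plus, for each role without one, its gene with the smallest p. From related lists at most 6 called genes by p are named, and Nfe2l1, Nfe2l2, Psmb8, Psmb9, Pomp and Psmg1 to Psmg4 whatever their values. Alternatives changed the probe set rule, filter, floor, variance moderation, array weights, scaling, replicate block, arrays fitted and arrays left out. No batch was named in the labels. Dixon's ratio set no vehicle array apart in any of the 39 genes, and was not computed for other genes such as Nfe2l1.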

Additional observations from a re-analysis of the deposited data

How the results depend on the processing

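Direction held for every called proteasome gene in each alternative run, but counts of calls moved. At 244.6 mg/kg the 1 call became 2 with genes above the median level or a second quantile normalisation, 5 with array weights, 3 with a floor at the 20th percentile, and 0 in a fit to the arrays compared; leaving out single arrays gave 0 to 1. At 489.2 mg/kg the 7 calls became 1 in a fit to the arrays compared and 2 to 9 without single arrays. At 978.5 mg/kg the 27 became 17 in that fit, 24 after a second quantile normalisation, and 17 to 28 without single arrays; all genes called higher fell from 878 to 554 in that fit and to 461 without the third array. Between the 2 upper doses the 0 became 1 with all probe sets of a gene averaged, and 0 to 1 without single arrays. The slope's 28 became 12 with treated arrays alone and 18 to 28 without single arrays. The fits to fewer arrays, or to genes above the median level, had less data or fewer tests; for the other settings the cause was not tested. Without single arrays, uncalled Psmb10 ran from -0.17 to 0.08 (without the third 978.5 mg/kg array) and Psme3ip1 from -0.08 to 0.04 (without the same array), turning also to 0.01 without the second and 0.00 with array weights, median centring or without vehicle array 5. With the replicate number as a block (replicate block) 0, 5, 26 and 24 genes were called at 244.6, 489.2 and 978.5 mg/kg and by the slope. The numbers were not taken to pair the arrays: 17 of 45 same-numbered pairs correlated above 0.1 (range -0.23 to 0.37). All 3 numbers did so only between 61.2 and 978.5 mg/kg. These groups were not compared directly with each other, but both enter the slope. Of 18 arrays 10 correlated best with their own number, a hint from the data and not the design.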

Other observations

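Autophagy, the other route by which cells degrade proteins, showed no common direction at 978.5 mg/kg. Of 12 measured genes of autophagy receptors and core factors, 3 were called higher and 1 lower by limma, against 6.18% and 4.07% of all genes. Their median log2 difference was 0.00. Gabarapl1, which coats the autophagosome membrane, differed by 0.66 ± 0.12 (adjusted p = 0.00134). Sqstm1, a receptor for ubiquitinated cargo that is also an NRF2 target, differed by 0.43 ± 0.11 (adjusted p = 0.0142), and the conjugating enzyme Atg3 by 0.38 ± 0.11 (adjusted p = 0.0258). Ulk1, the kinase that starts autophagy, was lower by -0.40 ± 0.12 (adjusted p = 0.0428), with 1 of 3 arrays below all vehicle arrays. Single arrays decided some of these calls: that of Sqstm1 was lost without the first (0.33) or the second (0.41) 978.5 mg/kg array, that of Atg3 without the third (0.30), and that of Ulk1 without the first or the third or without vehicle array 1, 3, 5 or 6.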
